A study of Mus musculus with 22 samples.

Results

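The respiratory chain of mitochondria is built from subunits encoded in both the nuclear and the mitochondrial genome, and the counts of these subunit genes were followed through 22 bulk RNA-seq libraries, 18 of mouse renal capsule, the thin connective tissue sheath around the kidney, and 4 of mouse kidney macrophages. Genes were taken by symbol: protein-coding genes of the GENCODE M21 annotation of GRCm38 whose names begin with the usual stems for complex I to V subunits (Ndufa, Ndufb, Ndufc, Ndufs, Ndufv, Sdha to Sdhd, Uqcr, Cox4i, Cox5 to Cox8, Atp5 and the mt-Nd, mt-Cytb, mt-Co and mt-Atp genes). The assembly factors named Ndufaf and the brown fat and muscle isoforms Cox8b and Cox7a1 were left out. This rule uses no measured value. It found 97 genes in the annotation, of which 96 are among the 52636 genes counted. These are 83 nuclear genes, with 38 in complex I, 4 in complex II, 8 in complex III, 16 in complex IV and 17 in complex V, and 13 mitochondrial genes, with 7 in complex I, 1 in complex III, 3 in complex IV and 2 in complex V. The complex was assigned by symbol stem alone, so Ndufa4 and Ndufa4l2 count in complex I by name only.

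The libraries were aged capsule tissue and young capsule tissue (n = 3 each), capsule macrophages and kidney macrophages (n = 4 each), and aged and young libraries titled RCAM (n = 4 each), a name the labels do not spell out. Labels describe all mice as without treatment and give no strain, sex or age in time units, and no age at all for the capsule and kidney macrophages. The RCAM libraries carry whole tissue as their cell type field, while the series text speaks of capsules sorted for macrophages. The 14 pan-macrophage markers summed to 37700 to 42300 counts per 1000000 reads counted (CPM) in RCAM libraries, against 2290 to 11000 CPM in capsule tissue. Library totals ran between 20.6 and 54.4 M (1e6) counts. Young tissue had 20.6, 21.3 and 22.2 M counts and aged tissue 43.2, 37.4 and 27.1 M. Sequencing depth thus did not overlap between the tissue ages and cannot be told apart from age there. Nothing states that replicates came from separate mice, so p-values measure the spread between these libraries, which may be technical.

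As background, complex I (NADH dehydrogenase) and complex II (succinate dehydrogenase) feed electrons into the membrane, complex III (cytochrome bc1) passes them to cytochrome c, and complex IV (cytochrome c oxidase) hands them to oxygen. Complexes I, III and IV pump protons, and complex V (ATP synthase) uses the gradient to make ATP. Nuclear subunits are transcribed as separate genes and their proteins imported. The mitochondrial subunits are cut from long transcripts of a small circular genome, and complex II has no mitochondrial subunit. Kidney tubule cells and brown fat are rich in mitochondria, and macrophages change their use of this chain with activation.

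Several subunits have near-identical copies elsewhere in the genome, and a read of 50 bases that matches several genes equally cannot be assigned among them by its sequence. How such reads were counted is not known here, and the part of copies in the levels was not tested. The members shown here have a copy elsewhere in the genome and span the range from no difference to a few; lower case marks bases shared with the copy and capitals mark the bases that differ. For mt-Co2, a catalytic subunit of complex IV, and Ndufb4, an accessory subunit of complex I, the first 60 coding bases are given. For Cox5b, a nuclear complex IV subunit, coding bases 184 to 243 are given. All are from GENCODE M21 transcripts of GRCm38, 5′ to 3′.
mt-Co2 (mitochondrial chromosome): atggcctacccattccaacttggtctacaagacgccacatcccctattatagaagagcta
Gm28661 (chromosome 1): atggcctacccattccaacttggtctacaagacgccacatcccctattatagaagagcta
Ndufb4 (chromosome 16): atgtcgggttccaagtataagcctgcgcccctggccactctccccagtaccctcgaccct
Ndufb4c (chromosome 15): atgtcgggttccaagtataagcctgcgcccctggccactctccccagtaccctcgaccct
Cox5b (chromosome 1): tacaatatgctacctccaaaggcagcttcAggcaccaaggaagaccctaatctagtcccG
Gm11273 (chromosome 13): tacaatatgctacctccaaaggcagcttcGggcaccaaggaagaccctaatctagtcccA

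Over their whole aligned length, mt-Co2 and Gm28661, an unprocessed pseudogene, differed at 0 of 681 bases. Ndufb4 and its processed pseudogene Ndufb4c differed at 0 of 390 bases, and Cox5b and Gm11273 at 3 of 390. Every coding window of 50 bases was looked up in the transcripts of all other genes. In 45 of the annotated members every window was found in no other gene. In 11 members under 5% of windows were: Ndufab1, Ndufb4, Cox7c, Atp5g1, Atp5g2 and Atp5l in the nucleus, and mt-Nd3, mt-Nd4l, mt-Co2, mt-Co3 and mt-Atp6 in the mitochondrion. This 5% limit was set after the values were seen, so the following contrasts are descriptions without a test.

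Members with few unmatched windows were listed at very low counts. In young capsule tissue, the 5 mitochondrial ones had a median of 15.2 CPM per kb of transcript, against 3450 CPM per kb in the other 8. Low levels were not limited to members with copies: mt-Atp8, a small subunit of ATP synthase, and mt-Nd6 have no window in another gene and stood at 1.44 and 35.9 CPM per kb. For the 6 nuclear ones the median was 1.85 CPM per kb, against 219 CPM per kb in the other 77. The gap between mt-Co1 and mt-Co2, which encode partners in the same enzyme core, shows its size: mt-Co1 had 3936, 4071 and 6802 CPM in young capsule tissue, and mt-Co2 had 8.79, 9.91 and 15.9 CPM. The copy Gm28661 itself collected between 9 and 36 reads in those 3 libraries. Levels of the 11 genes under the limit are reported as uncertain. Members above it can share windows too, such as Uqcrb (26.8% found in no other gene), Ndufs5 (27.9%) and Ndufa12 (28.5%).

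**Figure D1:**
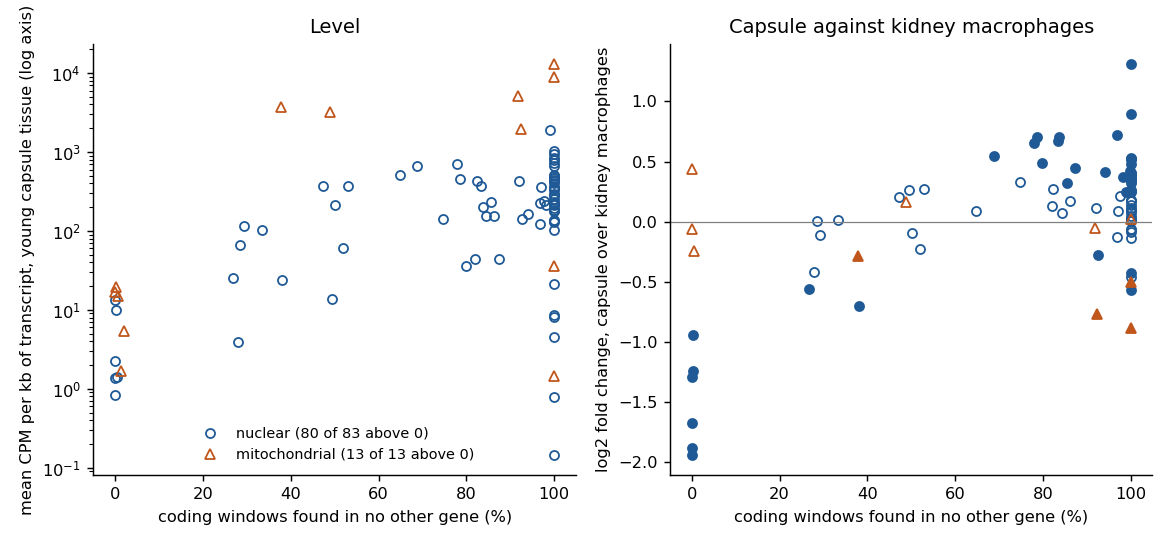
Left, mean CPM per kb of principal transcript in young capsule tissue (n = 3, log axis) for each member above 0, against the percent of its coding 50-base windows found in no other gene; right, log2 fold change of capsule over kidney macrophages (n = 4 each) against the same percent, with filled symbols for an adjusted p under 0.05. Members at the left edge of both panels have low levels, and the 6 nuclear ones there lie between -1.94 and -0.94 on the right.

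Of the nuclear members, 3 were listed at 0 counts in all 22 libraries. Cox4i1, the general isoform of the largest nuclear complex IV subunit (chr8:120668222-120674207, GRCm38), and Ndufa13, a complex I accessory subunit (chr8:69894180-69902558), lie wholly inside the spans of other genes on their own strand, named Gm20388 and Yjefn3. Cox8c, a testis isoform in mammals, was the other. Nothing about the transcription of Cox4i1 or Ndufa13 can be read from a 0 of this kind.

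Promoters of nuclear members were read from RefSeq windows of GRCm38.p6 that run from 250 bases before to 50 bases after the start and that matched 65 nuclear members by symbol. NRF1 is a transcription factor known to regulate many nuclear respiratory genes. Its palindromic consensus (the capitals in the promoter lines) was searched on both strands and was present in 5 of 65 member promoters (7.7%), against 257 of 17491 protein-coding promoters (1.47%). With its sixth base free, which includes the matches just counted, the shares were 26.2% and 7.17%. The ETS-type motif CCGGAAG was found in 24.6% of member promoters and 12.94% of all, the YY1 motif in 6.2% and 1.06%, and TATAAA in 9.2% and 14.8%. A match is a string of letters, not a bound site. The upstream stretch is shown for 4 of the 5 members that hold the whole NRF1 motif, given on the strand of the gene, with the motif in capitals.
Ndufa11, complex I, chr17:56717672-56717741, plus strand: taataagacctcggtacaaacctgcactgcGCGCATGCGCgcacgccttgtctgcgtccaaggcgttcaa
Cox6a1, complex IV, chr5:115349081-115349150, minus strand: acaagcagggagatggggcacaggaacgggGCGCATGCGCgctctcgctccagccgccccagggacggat
Atp5g2, complex V, chr15:102671050-102671119, minus strand: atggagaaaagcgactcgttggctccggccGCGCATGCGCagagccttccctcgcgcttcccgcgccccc
Atp5k, complex V, chr5:108434410-108434479, minus strand: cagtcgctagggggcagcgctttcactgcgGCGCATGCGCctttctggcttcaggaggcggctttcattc

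Respiratory chain transcripts took the largest share of counts in capsule tissue and a far smaller one in the macrophage and RCAM libraries, with the mitochondrial genes far more unequal than the nuclear ones. Together the 96 members took 2.86, 3.27 and 3.10% of counts in aged capsule tissue and 5.52, 6.50 and 8.19% in young capsule tissue. In the 16 macrophage and RCAM libraries they took between 0.685 and 1.08%. Nuclear members summed to 12520 ± 2540 CPM in aged tissue and 24700 ± 7600 CPM in young tissue (SD, n = 3 each). They summed to 7469 ± 540 CPM in capsule macrophages and 7307 ± 824 CPM in kidney macrophages (SD, n = 4 each). In RCAM libraries the nuclear sum was 6604 ± 308 CPM in aged and 6536 ± 425 CPM in young (SD, n = 4 each).

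Mitochondrial members summed to 18220 ± 1190 CPM in aged tissue and 42690 ± 17600 CPM in young tissue. The sums were 1704 ± 127 CPM in capsule macrophages, 2403 ± 301 CPM in kidney macrophages, 1318 ± 92.1 CPM in aged RCAM libraries and 1373 ± 340 CPM in young RCAM libraries. The ratio of the mitochondrial to the nuclear sum was thus 1.98, 1.36 and 1.19 in aged tissue and 1.53, 0.951 and 3.32 in young tissue. It lay between 0.214 and 0.247 in capsule macrophages, between 0.315 and 0.341 in kidney macrophages, between 0.191 and 0.206 in aged RCAM libraries and between 0.148 and 0.237 in young RCAM libraries. Capsule and kidney macrophages did not overlap in this ratio. In bulk libraries, fewer mitochondria-rich cells and less of this RNA per cell cannot be told apart. Between tissue and the other libraries, kit and counting cannot be told apart from tissue either, as described with young RCAM libraries below.

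Within young capsule tissue, levels per kb of transcript were led by mt-Cytb (13200 ± 5370 CPM per kb) and mt-Nd1 (8970 ± 4140 CPM per kb). The most abundant nuclear members were Atp5b, the catalytic beta subunit of ATP synthase, at 1910 ± 710 CPM per kb, and Atp5a1, its alpha subunit, at 1020 ± 279 CPM per kb (SD, n = 3). The neighbouring levels of Atp5a1 and Atp5e, at 944 ± 185 CPM per kb, differed by less than the spread. In young RCAM libraries mt-Cytb at 486 ± 123 CPM per kb and Atp5b at 452 ± 31.3 CPM per kb were alike within their spread (SD, n = 4). Atp5a1 followed at 350 ± 18.9 CPM per kb, and Uqcrc1, a core protein of complex III, stood at 208 ± 6.01 CPM per kb.

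**Figure D2:**
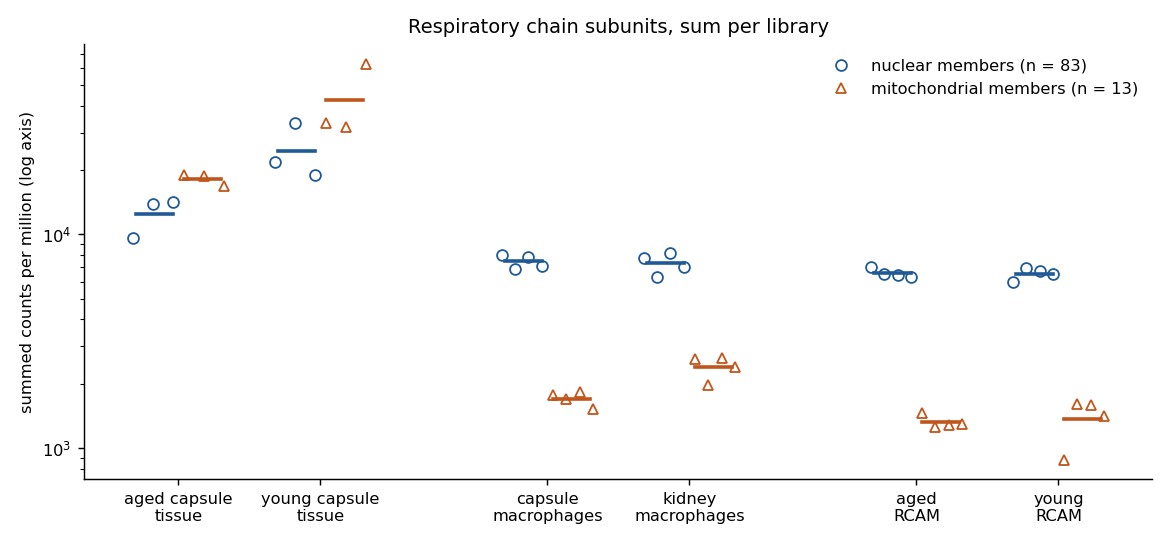
Summed CPM of the library total (log axis) of the 83 nuclear members (circles) and the 13 mitochondrial members (triangles) in each library, with a bar at the mean of each group. Capsule tissue libraries lie above all macrophage and RCAM libraries for both sums, and the mitochondrial sum of young RCAM replicate 1, at 881 CPM, is the lowest of all.

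The first comparison asked how subunit transcripts differ between the capsule tissue of aged and young mice. Nearly all members had negative estimates in aged tissue, in every complex and in both genomes, yet no single member passed the main test. Of 79 nuclear and 11 mitochondrial members tested by edgeR's quasi-likelihood test with Benjamini-Hochberg adjustment, 0 passed an adjusted p of 0.05. Of all 16350 genes, 25 passed as higher (0.153%) and 14 as lower (0.0856%). At an unadjusted p under 0.05, 66 nuclear and 11 mitochondrial members were lower and none was higher, against 11.7% of all genes lower. DESeq2 called 56 nuclear and 10 mitochondrial members lower, against 5.86% of all genes. Without young replicate 2, 1 nuclear and 2 mitochondrial members passed in edgeR. With the replicate number as a block, 61 nuclear and 9 mitochondrial members passed as lower in edgeR. No label states such a pairing, so the result depends on a choice that the labels do not settle. The median log2 fold change was -1.09 over nuclear and -1.37 over mitochondrial members tested, against 0.04 over all genes tested. Groups did not overlap, with aged lower, for 66 nuclear and 10 mitochondrial members, against 9.52% of all genes.

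By complex, the median log2 fold change of nuclear members tested was -1.09 for complex I, -1.24 for complex II, -1.22 for complex III, -1.11 for complex IV and -0.92 for complex V. Single values spread more widely within a complex than these medians did, as between -1.47 and -0.32 in complex I. Above 0 lay 3 members, namely Cox7c (0.02 ± 0.51, SE), Atp5g2 (0.57 ± 0.53) and Atp5l (0.92 ± 0.75), and all 3 belong to the members with under 5% unmatched windows. The other 76 nuclear members tested lay between -1.47 and -0.30.

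Ndufs6 (chr13:73319838-73328542), an accessory subunit of complex I, had the smallest p. It had 24.6, 31.7 and 36.6 CPM in aged tissue, against 69.7, 91.4 and 76.9 CPM in young tissue. The groups lay well apart, and its log2 fold change was -1.47 ± 0.23 (SE; adjusted p = 0.0555, edgeR). Sdhc (chr1:171127165-171150603), a membrane anchor of complex II, had 168, 215 and 233 CPM in aged tissue, against 404, 533 and 321 CPM in young tissue. Its groups did not overlap either, at a log2 fold change of -1.14 ± 0.28 (adjusted p = 0.0924, edgeR).

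Uqcrc1 (chr9:108936633-108949623) had 288, 383 and 389 CPM in aged tissue, against 703, 1222 and 568 CPM in young tissue. Cox5a (chr9:57521274-57532426), a nuclear subunit of complex IV, had 82.9, 116 and 149 CPM in aged tissue, against 242, 423 and 225 CPM in young tissue. Atp5d (chr10:80138632-80145818), the delta subunit of the ATP synthase stalk, had 186, 237 and 254 CPM in aged tissue, against 421, 587 and 402 CPM in young tissue. In each of these genes the highest aged library stayed below the lowest young one, and young replicate 2 was the highest. Their log2 fold changes were -1.35 ± 0.35 for Uqcrc1, -1.46 ± 0.36 for Cox5a and -1.17 ± 0.27 for Atp5d, at adjusted p of 0.0985, 0.0914 and 0.0875 in that order (edgeR).

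The mitochondrial genes differed in which young library was highest. mt-Cytb (chrM:14145-15288), the haem-carrying core of complex III, had 6450, 5923 and 5675 CPM in aged tissue, against 11990, 11170 and 22210 CPM in young tissue. mt-Co1 (chrM:5328-6872), the catalytic subunit of complex IV, had 2322, 2180 and 1897 CPM in aged tissue, against 3936, 4071 and 6802 CPM in young tissue. Here young replicate 3 stood highest, while the nuclear sum was highest in young replicate 2, and the aged libraries lay close together. Log2 fold changes were -1.45 ± 0.38 for mt-Cytb (adjusted p = 0.0985, edgeR) and -1.33 ± 0.32 for mt-Co1 (adjusted p = 0.0907). mt-Nd1, mt-Nd2, mt-Nd4 and mt-Nd5, core subunits of complex I, lay between -1.37 and -1.09.

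mt-Nd6 (chrM:13552-14070) is the mitochondrial member encoded on the opposite strand from the rest. It had 17.7, 6.85 and 3.40 CPM in aged tissue, against 16.9, 17.9 and 21.1 CPM in young tissue. Aged replicate 1 fell inside the young range, so these groups overlapped, at a log2 fold change of -1.15 ± 0.49 (adjusted p = 0.216, edgeR). The members with few unmatched windows, mt-Co2, mt-Co3, mt-Atp6 and mt-Nd3, lay between -1.87 and -1.63, at levels under 19 CPM.

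Summed markers of other cell types were read in the same libraries, and only those of proximal tubule and brown fat did not overlap between ages. By edgeR, 1 of 8 brown fat markers passed as lower and 0 markers of the other lists passed, against 0.0856% of all genes lower. Proximal tubule markers, 15 of 15 detected, summed to 3400 to 8840 CPM in aged tissue, against 11900 to 32100 CPM in young tissue. Brown fat markers, 8 of 8 detected, summed to 277 to 418 CPM in aged tissue, against 825 to 3380 CPM in young tissue. Loop and distal nephron markers, 9 of 9 detected, summed to 116 to 399 CPM in aged tissue, against 225 to 763 CPM in young tissue. Pan-macrophage markers, 14 of 14 detected, summed to 4470 to 11000 CPM in aged tissue, against 2290 to 4520 CPM in young tissue, and 1 of 14 had a negative log2 fold change. Erythroid markers, 5 of 5 detected, summed to 3070 to 9150 CPM in aged and 7060 to 26400 CPM in young tissue. Adipocyte markers overlapped, at 19000 to 35000 CPM in aged and 16600 to 33200 CPM in young tissue. So did fibroblast markers, at 7290 to 10700 CPM in aged and 6810 to 11700 CPM in young tissue. Adrenal cortex markers reached 5920 CPM in aged replicate 2 and 179 CPM in young replicate 2, and lay between 3.17 and 13.6 CPM in the other libraries; without both of these libraries 0 members passed. The part of these cell types in the lower subunit counts was not tested.

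**Figure D3:**
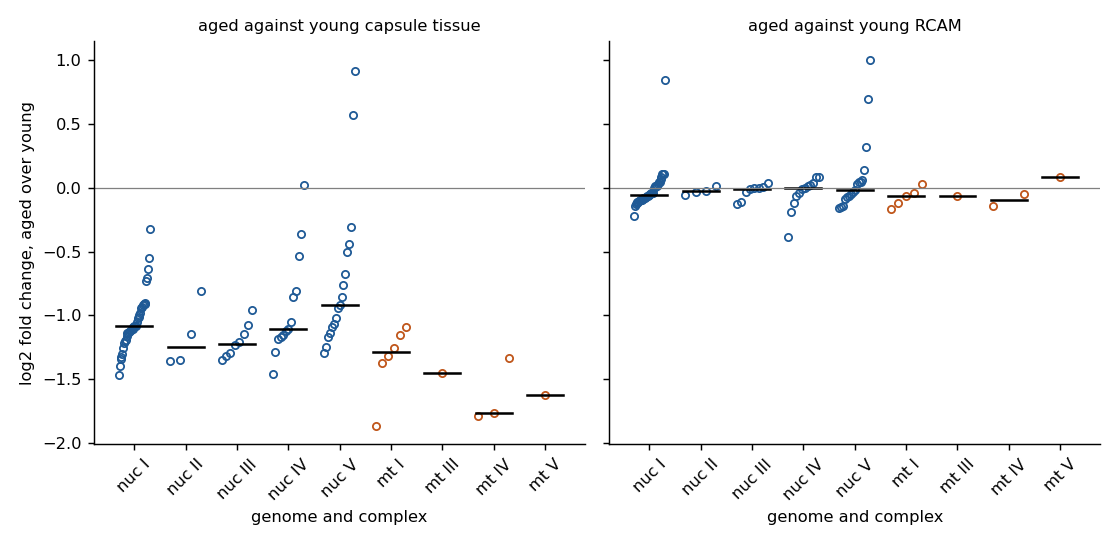
Log2 fold change of aged over young for each member tested, by genome (nuc, nuclear; mt, mitochondrial) and complex, in capsule tissue (left, n = 3 each) and RCAM libraries (right, n = 4 each); bars mark the median of each set and no member passed an adjusted p of 0.05 in either panel. Medians lie between -1.77 and -0.92 in capsule tissue and between -0.09 and 0.09 in RCAM libraries.

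The same age contrast in RCAM libraries gave no subunit past the threshold, and most estimates lay near 0. Of 78 nuclear and 9 mitochondrial members tested, 0 passed by edgeR or DESeq2 (which called 5.94% of all genes higher and 2.99% lower), while in edgeR 520 of 15182 genes passed as higher (3.43%) and 209 as lower (1.38%). Only Ndufs6 reached an unadjusted p under 0.05, against 10.1% of all genes higher and 7.33% lower. The median log2 fold change was -0.03 over nuclear members tested and -0.06 over mitochondrial members tested, against -0.01 over all genes tested.

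Ndufs6 had 28.6, 28.9, 27.1 and 24.9 CPM in aged RCAM libraries, against 29.7, 31.4, 31.6 and 32.9 CPM in young ones. The groups did not overlap, but the log2 fold change was small, -0.22 ± 0.09 (SE; adjusted p = 0.211, edgeR). Uqcrc1 had 365, 342, 335 and 353 CPM in aged RCAM libraries, against 342, 358, 341 and 334 CPM in young ones, and the ranges overlapped. Cox5a had 73.6, 57.0, 61.6 and 52.2 CPM in aged RCAM libraries, against 53.6, 69.0, 63.2 and 66.3 CPM in young ones, again overlapping.

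mt-Cytb had 603, 511, 522 and 516 CPM in aged RCAM libraries, against 352, 649, 652 and 572 CPM in young ones. mt-Co1 had 217, 180, 189 and 191 CPM in aged RCAM libraries, against 132, 235, 231 and 194 CPM in young ones. Young replicate 1 was the lowest library of both groups for each gene, and aged replicate 1 the highest of its own group. Without aged replicate 1 or without young replicate 1, 0 members passed as well. Fibroblast markers stood at 890 to 2540 CPM in aged RCAM libraries, against 515 to 720 CPM in young ones, and 3 of 6 were higher (edgeR). Sdhc overlapped at 112, 101, 102 and 85.8 CPM in aged and 94.0, 106, 105 and 104 CPM in young RCAM libraries. The estimates farthest from 0 were those of scarce transcripts, Atp5g2 at 1.01 ± 0.53 (adjusted p = 0.385, edgeR), Ndufa4l2 at 0.85 and Atp5l at 0.70.

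The age effects of both materials were then set against each other, as the effect in RCAM libraries minus that in tissue. It was higher in RCAM libraries for 30 of 79 nuclear and 2 of 13 mitochondrial members, and lower for 0 (edgeR's quasi-likelihood test, adjusted p under 0.05). Of 18856 genes, 3.12% were higher and 1.93% lower by the same rule. This fit used a spread common to the 4 groups, although tissue libraries varied more than RCAM libraries. The SD within groups of the log2 nuclear sum was 0.373 in tissue and 0.082 in RCAM libraries. The SE of a difference could thus fall below that of the tissue effect alone, as for Sdhc (0.256 against 0.279). At an unadjusted p under 0.05, 67 nuclear and 10 mitochondrial members were higher and 0 lower, against 13.2% of all genes higher. The median difference was 1.12 on the log2 scale over nuclear and 1.36 over mitochondrial members tested, against 0.06 over all genes tested. Markers of other cells differed in the same test. Of brown fat markers, 3 of 8 were higher, at a median difference of 4.44, and of fibroblast markers 3 of 6, at 1.68. Loop and distal nephron markers had 2 of 9 higher, at a median of 1.46, and adipocyte markers 1 of 8, at 0.74. None passed among 5 erythroid markers (median 1.55), 5 adrenal cortex markers tested (-5.96) and 3 skeletal muscle markers tested (0.57). Proximal tubule markers had a median difference of 2.27 with 0 of 15 past the threshold, and pan-macrophage markers had a median of -0.82, with 1 of 14 higher and 1 lower. Their part in the subunit differences was not tested. By complex, 16 of 37 members of complex I passed, 3 of 4 of complex II, 3 of 8 of complex III, 4 of 13 of complex IV and 4 of 17 of complex V.

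Ndufs6 had the smallest p, at a difference of 1.28 ± 0.23 (SE; adjusted p = 0.0146, edgeR), followed by Atp5d at 1.27 ± 0.23 (adjusted p = 0.0161). Ndufb11, a membrane arm subunit of complex I, differed by 1.19 ± 0.23, and Ndufs7, which carries an iron-sulphur cluster, by 1.35 ± 0.28. Ndufv1, which binds NADH, differed by 1.38 ± 0.31. In complex II the members that passed were Sdhc (1.13 ± 0.26), Sdhd (1.37 ± 0.32) and Sdhb (1.36 ± 0.34), while Sdha did not pass. Uqcr11 (1.33 ± 0.30), Uqcrc1 (1.39 ± 0.32) and Uqcrfs1, the Rieske iron-sulphur protein (1.36 ± 0.32), passed in complex III. In complex IV they were Cox6a1, Cox5a, Cox6c and Cox6b1, with differences between 1.18 and 1.44. The mitochondrial genes that passed were mt-Co1 (1.32 ± 0.30, adjusted p = 0.0282) and mt-Cytb (1.42 ± 0.34, adjusted p = 0.0334).

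The count is unsteady. It moved by over 1.5 times when single libraries were left out: 12 and 13 nuclear members were higher without young tissue replicate 1 or 2, 3 without aged tissue replicate 1, and 19 and 54 without aged tissue replicate 2 or 3. Without young RCAM replicates 1 to 4 the counts were 6, 16, 6 and 8, and without aged RCAM replicates 1 to 4 they were 4, 16, 12 and 11. The mitochondrial count was 0 without young RCAM replicate 4 or aged RCAM replicate 1, and 4 without young tissue replicate 2 or young RCAM replicate 3. DESeq2 called 56 nuclear and 8 mitochondrial members, against 7.81% of all genes. Tissue and RCAM libraries also differ in the counts of genes wholly covered from the opposite strand, as described with their direct comparison. Of the members with no gene on the opposite strand, 21 of 51 nuclear and 1 of 10 mitochondrial passed.

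**Figure D4:**
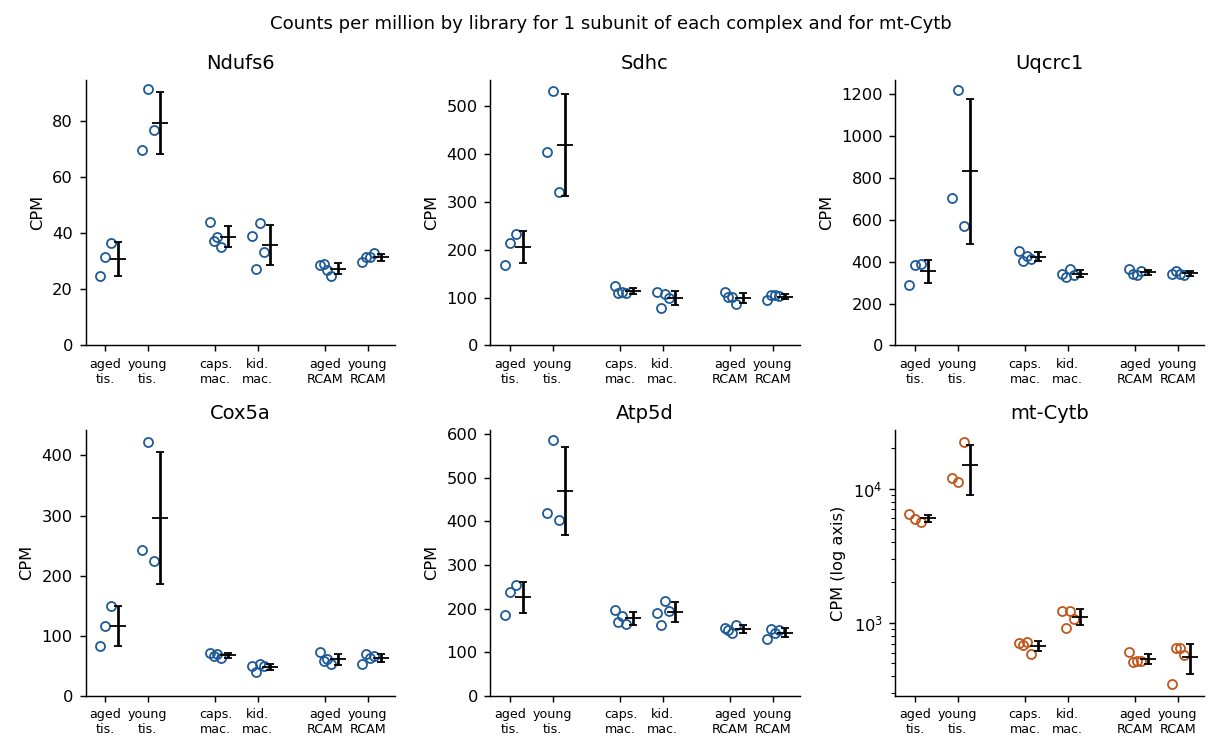
CPM of the library total in each library for 1 nuclear subunit of each complex and for mt-Cytb (log axis for mt-Cytb only), with the mean and SD of each group beside its points (tis., capsule tissue; mac., macrophages). Aged tissue lies below young tissue in every panel, while aged and young RCAM libraries overlap in all panels but that of Ndufs6.

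Capsule macrophages were then set against kidney macrophages. Nuclear members differed in both directions by mostly small amounts, and 4 mitochondrial genes were lower in capsule macrophages. Of 78 nuclear members tested, 28 were higher and 11 lower in capsule macrophages by edgeR's quasi-likelihood test, and of 10 mitochondrial members 0 were higher and 4 lower. Of all 15701 genes, 27.3% were higher and 28.2% lower. The median log2 fold change was 0.17 over nuclear and -0.15 over mitochondrial members tested, against -0.03 over all genes tested. With library totals in place of TMM scaling, a setting added after seeing the data, 7 nuclear members were higher and 16 lower. The median of the nuclear members was then -0.04 and that of all genes -0.24. This scaling moves all genes together, and the nuclear median lay above that of all genes under both.

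All 6 nuclear members with under 5% unmatched windows were lower in capsule macrophages, with log2 fold changes between -1.94 and -0.94. Among the other 72 tested, 28 were higher and 5 lower. Cox7c, a small complex IV subunit, had 4.35, 4.44, 2.97 and 5.32 CPM in capsule macrophages, against 15.0, 15.4, 15.4 and 17.1 CPM in kidney macrophages. Ndufab1, the acyl carrier protein of complex I, had 9.66, 10.95, 8.67 and 7.48 CPM in capsule macrophages, against 25.4, 23.8, 29.8 and 21.96 CPM in kidney macrophages. Neither gene's groups overlapped, at log2 fold changes of -1.67 ± 0.20 (adjusted p = 4.73e-05, edgeR) and -1.24 ± 0.15 (adjusted p = 4.64e-05). Reads of both can be shared with pseudogenes, so these values are uncertain.

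Uqcrc1, whose level rests on many reads, had 450, 404, 428 and 411 CPM in capsule macrophages, against 343, 325, 364 and 336 CPM in kidney macrophages. Cox5a had 71.4, 66.0, 69.8 and 62.3 CPM in capsule macrophages, against 50.0, 39.7, 52.6 and 48.9 CPM in kidney macrophages. Both were higher in every capsule library, by 0.52 ± 0.07 for Uqcrc1 (adjusted p = 7.54e-05, edgeR) and 0.71 ± 0.09 for Cox5a (adjusted p = 0.000105). Ndufa7 (0.72 ± 0.11), Ndufa11 (0.71 ± 0.12) and Cox6a1 (0.65 ± 0.11) were higher as well. So were Sdha, the flavin-bearing subunit of complex II (0.35 ± 0.07), and Atp5a1 (0.32 ± 0.07). Uqcrfs1 (-0.57 ± 0.14) and Uqcrb (-0.56 ± 0.18) of complex III were lower. Only 26.8% of the coding windows of Uqcrb were found in no other gene, so its value is less certain.

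Among mitochondrial genes, mt-Cytb had 711, 684, 719 and 590 CPM in capsule macrophages, against 1221, 911, 1229 and 1076 CPM in kidney macrophages. mt-Nd6 had 33.5, 27.4, 33.7 and 29.4 CPM in capsule macrophages, against 67.2, 57.8, 67.6 and 72.4 CPM in kidney macrophages. mt-Co1 had 250, 237, 249 and 204 CPM in capsule macrophages, against 256, 202, 272 and 242 CPM in kidney macrophages. The groups stood apart for mt-Cytb and mt-Nd6 and overlapped for mt-Co1. Log2 fold changes were -0.50 ± 0.10 for mt-Cytb (adjusted p = 0.00126, edgeR), -0.88 ± 0.10 for mt-Nd6 (adjusted p = 4.48e-05), -0.77 ± 0.09 for mt-Nd5 (adjusted p = 5.22e-05) and -0.28 ± 0.09 for mt-Nd4 (adjusted p = 0.0194). For mt-Co1 it was 0.16 ± 0.10 (adjusted p = 0.171).

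Kidney macrophage libraries also held tubule RNA. Proximal tubule markers summed to 181 to 441 CPM in capsule macrophages, against 3320 to 5410 CPM in kidney macrophages, with 15 of 15 detected in both. Loop and distal nephron markers summed to 16.1 to 35.6 CPM in capsule macrophages, against 242 to 403 CPM in kidney macrophages. Fibroblast markers ran the other way, with capsule libraries at 567 to 863 CPM against kidney libraries at 7.49 to 11.3 CPM. Pan-macrophage markers did too, at 36300 to 40000 CPM against 27600 to 30200 CPM, with 12 of 14 higher and 1 lower (edgeR). Of all genes, 27.3% were higher and 28.2% lower. Erythroid markers summed to 150 to 318 CPM in capsule and 23.2 to 35.5 CPM in kidney libraries. Adipocyte markers summed to 39.1 to 79.7 CPM and 12.0 to 16.1 CPM in that order. Markers of brown fat, adrenal cortex and skeletal muscle reached at most 7.79 CPM in either group. The part of these cell types in the subunit values was not tested.

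The isoforms that are restricted to tissues were scarce. Cox6a2, the heart and muscle isoform, had 0.111 to 0.428 CPM in aged tissue and 0.376 to 0.766 CPM in young tissue. In macrophages of the capsule its range was 0.458 to 1.05 CPM, against 0.301 to 0.440 CPM in those of the kidney, a log2 fold change of 1.31 ± 0.41 (adjusted p = 0.0189, edgeR). Its span lies wholly opposite a gene on the other strand, so its counts are uncertain. The general isoform Cox6a1 had 155 to 216 CPM in aged tissue and 306 to 553 CPM in young tissue. Cox6b2, known in testis, had 7.42 to 13.5 CPM in aged tissue and 10.9 to 13.6 CPM in young tissue, beside 171 to 272 CPM and 376 to 648 CPM of Cox6b1. Cox7b2 reached at most 0.235 CPM in any library.

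The hypoxia-linked isoforms marked the tissue. Ndufa4l2, a paralogue of Ndufa4 that is induced by low oxygen, had 6.02 to 7.73 CPM in aged tissue and 6.27 to 10.7 CPM in young tissue, against 0.0368 to 0.696 CPM in the macrophage and RCAM libraries. Cox4i2, an isoform known from lung, had 2.17 to 2.66 CPM in aged tissue and 1.80 to 4.42 CPM in young tissue, and reached at most 0.509 CPM in the other libraries. The age groups overlapped in tissue, at log2 fold changes of -0.32 ± 0.28 for Ndufa4l2 and -0.54 ± 0.40 for Cox4i2 (adjusted p = 0.542 and 0.463, edgeR). Of the genes for subunit c of ATP synthase, Atp5g3 carried most counts, with 272 to 403 CPM in aged tissue and 460 to 618 CPM in young tissue, while Atp5g1 and Atp5g2 belong to the members with few unmatched windows.

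Young RCAM libraries were last set against young capsule tissue. Before their values, the reading of both sets of files has to be described. Of 8800 genes with at least 10 CPM in every tissue library, 181 had 0 counts in every one of the 16 macrophage and RCAM libraries. Among these 181 is B2m, a gene of nearly all nucleated cells, at up to 3090 CPM in tissue. The spans of 178 of the 181 (98.3%) were wholly covered by a gene on the opposite strand, against 2.4% of the 8800. The reverse case held for 0 of 6921 genes. Of the 8800 genes, 207 were wholly covered in this way, so 178 of 207 were listed at 0 in macrophage and RCAM libraries and at 10 CPM or more in tissue. Counts of such wholly covered genes thus differed between the tissue libraries and the macrophage and RCAM libraries. The source of this difference was not tested. The labels name both a stranded kit and a low-input kit without assigning them to samples. Kit, counting and tissue cannot be told apart in this comparison.

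With that limit, nearly all members were lower in young RCAM libraries. Of 79 nuclear members tested, 74 were lower and 1 higher (edgeR), against 40.6% of 17491 genes lower and 35.2% higher. Of 13 mitochondrial members, 12 were lower and 1 higher. The median log2 fold change was -1.67 over nuclear and -4.93 over mitochondrial members, against -0.14 over all genes tested. Of 96 members, 63 have no gene on the opposite strand. Among those tested in this group, 48 of 51 nuclear and 10 of 10 mitochondrial members were lower, with medians of -1.71 and -5.06. These 10 mitochondrial members include the 5 with under 5% unmatched windows, whose levels are uncertain. Among the 28 nuclear members tested with some overlap, 26 were lower, at a median of -1.56.

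mt-Nd2 had 35.8, 66.3, 58.8 and 58.7 CPM in young RCAM libraries, against 3896, 4083 and 7843 CPM in young tissue, a log2 fold change of -6.33 ± 0.36 (adjusted p = 2.09e-06, edgeR). For mt-Cytb, the young values already given correspond to -4.51 ± 0.34, and for mt-Co1 to -4.39 ± 0.29. The mitochondrial genes thus differed among themselves, although the groups were far apart in each. mt-Nd6 went the other way. It had 18.4, 40.6, 34.0 and 32.4 CPM in young RCAM libraries, against 16.9, 17.9 and 21.1 CPM in young tissue, which overlapped through RCAM replicate 1, at a log2 fold change of 1.01 ± 0.25 (adjusted p = 0.00553, edgeR).

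In young RCAM libraries mt-Nd6 had 60.4 CPM per kb, against 486 CPM per kb for mt-Cytb, and in young tissue 35.9 against 13200 CPM per kb. Without strand, reads of mt-Nd6 and of transcripts made opposite to it cannot be told apart, and whether strand was used is not given in the sources used here. Among nuclear members, Ndufa4l2 (-5.53 ± 0.59) and Cox4i2 (-5.09 ± 0.62) were the lowest, followed by Atp5o (-3.30 ± 0.20) and Atp5k (-3.27 ± 0.26). Of the span of Atp5o, 59.8% lies opposite another gene. Cox7c was the nuclear member that was higher, at 1.37. It has under 5% unmatched windows and stood at 1.08 to 1.31 CPM in young tissue, so this value is uncertain. Of the 73 nuclear members tested with 5% or more, 0 were higher and 71 lower. Of the 8 mitochondrial members with 5% or more, 1 was higher and 7 lower, at a median of -4.45.

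**Figure D5:**
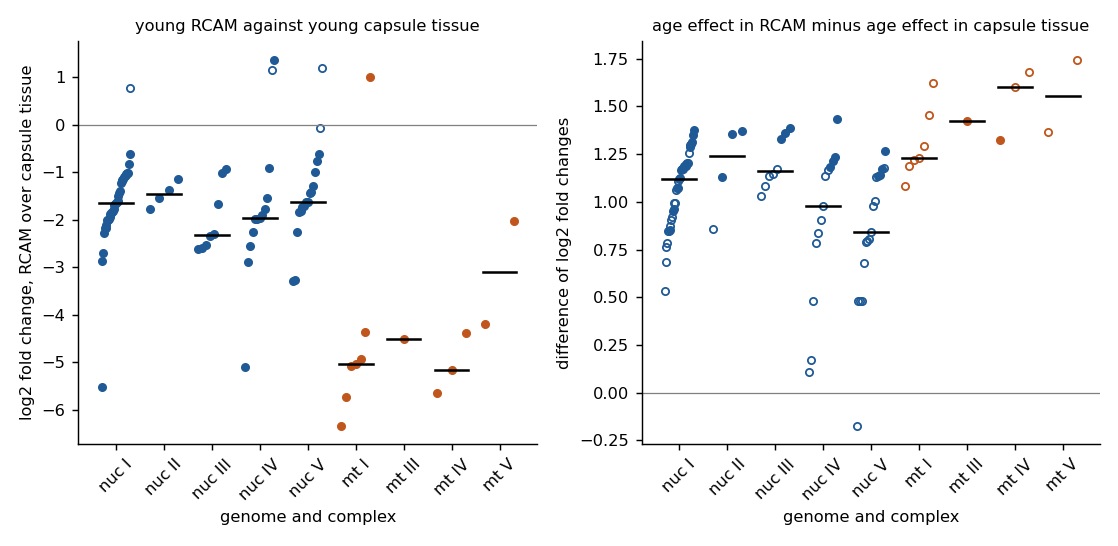
Left, log2 fold change of young RCAM libraries (n = 4) over young capsule tissue (n = 3) for each member tested, by genome and complex; right, the age effect in RCAM libraries minus the age effect in capsule tissue, as a difference of log2 fold changes, with filled points for an adjusted p under 0.05 and bars at the median of each set. On the left the mitochondrial genes lie between -6.33 and -2.02 apart from mt-Nd6, and on the right nearly all members lie above 0.

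Other mitochondrial genes were read from lists of the pathway, chosen with earlier results of these data known. In aged against young capsule tissue, 0 genes passed among 14 complex I assembly factors, 4 of complex II, 6 of complex III, 17 of complex IV and 4 of complex V (edgeR). Their medians lay between -0.67 and -0.48 on the log2 scale, all below 0. Cyc1, the cytochrome of complex III that carries a haem, had -1.50 ± 0.37 (adjusted p = 0.0936), and Cycs, cytochrome c itself, -0.85 ± 0.47 (adjusted p = 0.325).

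For the lists that follow, the background is that 7698 of all 16350 genes tested lay below 0 and 0.153% passed as higher and 0.0856% as lower. The mitochondrial ribosome list had 0 of 74 genes passing in aged tissue and all 74 below 0, at a median of -0.56. The citric acid cycle list had 0 of 17 passing and all 17 below 0, at a median of -1.06, and fatty acid oxidation 0 of 15 at a median of -1.17. Outer membrane and import genes lay at a median of -0.56, with 0 of 14 passing and Vdac1, the outer membrane channel, at -0.80 ± 0.22 (adjusted p = 0.108). Genes of glycolysis were mixed, with 11 of 20 below 0 and a median of -0.18.

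Among 11 regulators of mitochondrial biogenesis, 1 passed in aged tissue. Esrrg, an orphan nuclear receptor that activates respiratory genes, fell by 1.56 on the log2 scale (SE 0.21; adjusted p = 0.0447, edgeR). Pprc1, a coactivator of the same family as PGC-1, was at 0.98 ± 0.18 without passing (adjusted p = 0.0699). Among 17 genes of mitochondrial transcription and genome maintenance 0 passed, and the median was -0.34.

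In the difference of age effects, 7 of 17 citric acid cycle genes and 9 of 16 of fatty acid oxidation were higher in RCAM libraries than in tissue and 0 were lower (edgeR), against 3.12% of all genes higher and 1.93% lower. Of 75 mitochondrial ribosome genes 8 were higher, as were 2 of 14 outer membrane genes, 2 of 20 of glycolysis and 0 of 18 of mitochondrial transcription. Cyc1 differed by 1.67 ± 0.34 (adjusted p = 0.0223). Of the regulators, Esrra, an activator of respiratory genes, differed by 1.16 ± 0.18 (adjusted p = 0.00969), and Pprc1 by -0.97 ± 0.16 (adjusted p = 0.0106).

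Between capsule and kidney macrophages, the mitochondrial ribosome genes had 26 higher and 8 lower of 73, against 27.3% of all genes higher and 28.2% lower. Of 20 genes of glycolysis 10 were higher in capsule macrophages and 3 lower, and of 16 of fatty acid oxidation 7 were higher and 5 lower. Cpt1a, which admits fatty acids to the mitochondrion, rose by 1.61 ± 0.09 (adjusted p = 2.54e-07, edgeR). Of 18 genes of mitochondrial transcription and genome maintenance 2 were higher and 7 lower, and of 11 biogenesis regulators 0 were higher and 8 lower. Cycs was lower, at -1.85 ± 0.30 (adjusted p = 0.000407). Copies were looked up for the members only, so reads that Cycs may share with other genes were not checked.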

How the data were processed

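The authors deposited whole-number read counts per gene, and the deposited counts were used as they stand. Reads were single-end and of 50 bases, per the labels, and were placed on GRCm38, per the submitters' processing notes. The sources used here do not name the aligner, the counter or its strand setting. A stranded kit and a low-input kit are named, per the labels' protocols, without saying which sample had which.

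Levels are counts per 1000000 of the library total, and per kb values divide by the length of the principal transcript. Each comparison was fitted over all genes with edgeR 4.0.16 in R 4.3.3 (filterByExpr, TMM scaling, quasi-likelihood F test, Benjamini-Hochberg adjustment, threshold 0.05) on the groups compared, without the replicate number, and the difference of age effects on 4 groups. Fold changes follow TMM scaling, and SE is the absolute log2 fold change over the square root of F. The fits were tested on simulated data that gave each gene the same spread in all libraries of a comparison. The unequal spread of tissue and RCAM libraries was therefore not checked in this way. Alternatives were DESeq2 1.42.0, no filter, TMM without the members, library totals (added after seeing the data), a replicate block and leaving out libraries. Named genes were the mitochondrial members, the 3 nuclear members of smallest p per complex and comparison, the isoform families and up to 2 genes per pathway list. A few others were named after their values were seen. The members and lists were chosen with earlier results of these data known.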

Additional observations from a re-analysis of the deposited data

Results flagged for a closer look

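In groups of 4, the gap of the most extreme library to its neighbour was divided by the range of the group, and 4 of 96 such groups exceeded the critical value of 0.829, where chance gives about 1 in 20. Aged RCAM replicate 1 stood above its group for mt-Cytb, at 603 CPM, and so did the mitochondrial complex III sum, which is the same gene. Capsule macrophage replicate 1 stood above its group for Sdhc, at 124 CPM. Young RCAM replicate 3 stood above its group for mt-Co2, at 0.274 CPM, a member whose reads can be shared with copies.

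By the test of the difference itself, RCAM libraries and capsule tissue differed in the effect of age for 30 nuclear and 2 mitochondrial members (edgeR, adjusted p under 0.05). That test used a spread common to all groups, although tissue libraries varied more than RCAM libraries. Among the members with values per library, the differences on the log2 scale were 1.28 for Ndufs6, 1.27 for Atp5d, 1.32 for mt-Co1, 1.13 for Sdhc, 1.39 for Uqcrc1, 1.42 for mt-Cytb and 1.44 for Cox5a.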

How the results depend on the processing

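In aged against young capsule tissue, where 0 members passed, the counts of lower nuclear and mitochondrial members were 56 and 10 with DESeq2 and 43 and 4 without an expression filter. With library totals in place of TMM 1 nuclear member passed. Leaving out single libraries gave 0 to 1 nuclear and 0 to 2 mitochondrial members. For capsule against kidney macrophages, library totals gave 7 higher nuclear members in place of 28, and leaving out libraries gave 20 to 29 higher and 8 to 12 lower nuclear and 3 to 4 lower mitochondrial members. In aged against young RCAM libraries 0 members passed in all of these settings. In young RCAM libraries against young tissue, leaving out libraries gave 1 to 2 higher and 73 lower nuclear members, and 1 higher and 11 to 12 lower mitochondrial members. For the difference of age effects the nuclear count was 56 and the mitochondrial count 8 with DESeq2, and leaving out libraries gave 3 to 54 and 0 to 4. On a TMM-scaled total, the log2 ratio of summed levels moved to 0.241 (nuclear) and -0.285 (mitochondrial) for capsule against kidney macrophages and to -1.512 (nuclear) for young RCAM libraries against young tissue. The causes were not tested. With library totals the median of nuclear members in capsule against kidney macrophages was -0.04 in place of 0.17, beside -0.24 in place of -0.03 over all genes.

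No label states that libraries of the same replicate number belong together. In tissue, libraries of the same number correlated in their deviations from the group means by 0.099, 0.353 and 0.31, and each library correlated best with its own number, a hint from the data and not from the design. In the other comparisons same-number correlations lay between -0.108 and 0.036. With the replicate block, 61 nuclear and 9 mitochondrial members were lower in aged tissue, and with the block nested within tissue or RCAM the nuclear count in the difference of age effects was 47.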
